A study of Rattus norvegicus with 9 samples.

Results

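The genes described are 10 that act on newly made procollagen: Serpinh1, a collagen chaperone, the prolyl 4-hydroxylase alpha subunits P4ha1, P4ha2 and P4ha3, the lysyl hydroxylases Plod1, Plod2 and Plod3, the procollagen C-proteinase Bmp1 with its enhancer Pcolce, and the procollagen N-proteinase Adamts2. They were chosen by gene symbol for their role in collagen processing, and all 10 were found among the 17156 gene names of the tables. This choice, and that of the other gene lists below, was made with earlier results of these data known. The shares of all genes set beside their counts are therefore description and not an independent test. RNA was sequenced from 9 livers of male Sprague-Dawley rats, 3 per group. The normal control group received saline, and the model group received CCl4, a liver toxin, at 2 ml/kg by gavage for 9 weeks. The TA group received the same CCl4 and afterwards tormentic acid (TA), a plant triterpene, at 3.0 mg/kg for 6 weeks, and all rats were fasted for 12 h before the livers were taken. The age of the rats, and what the model rats received while others were given TA, are not given in the sources used here. The sources number the livers within a group and do not state that each came from a separate animal, so that the p-values measure the spread between these samples.

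A fibrillar procollagen chain is modified and folded in the endoplasmic reticulum before it leaves the cell. Prolyl 4-hydroxylases make the hydroxyproline that keeps the triple helix stable, lysyl hydroxylases make the hydroxylysine used for sugars and cross-links, and the chaperone Hsp47, encoded by Serpinh1, binds the folded helix. Outside the cell the N- and C-propeptides are cut off by separate proteinases, and the trimmed molecules assemble into fibrils. In fibrotic liver, activated stellate cells and portal fibroblasts are the main known source of fibrillar collagen.

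Promoter sequences are shown for some of the genes because the promoter letters of heat shock and hypoxia response are often discussed for them. Serpinh1 and Plod2 moved in the same direction in these livers, as did Pcolce and Adamts2, whose sequences are not printed. Plod1, of the same family as Plod2, did not pass a threshold in any comparison. The sequences are from RefSeq (rat assembly GRCr8), each 300 bases long, with 250 bases before the start of the gene and 50 after it, written in the direction of the gene. Of the 10 members, 9 had an entry, and Bmp1 had none. Capitals mark a heat shock element (TTC, any 2 bases, GAA, any 2 bases, TTC) or ACGTG, a hypoxia response core, in either reading direction. Serpinh1 lies at chr1:163062927-163063226 on the minus strand, Plod2 at chr8:101964068-101964367 on the plus strand, Plod1 at chr5:163650688-163650987 on the minus strand and P4ha2 at chr10:38743644-38743943 on the plus strand.
Serpinh1: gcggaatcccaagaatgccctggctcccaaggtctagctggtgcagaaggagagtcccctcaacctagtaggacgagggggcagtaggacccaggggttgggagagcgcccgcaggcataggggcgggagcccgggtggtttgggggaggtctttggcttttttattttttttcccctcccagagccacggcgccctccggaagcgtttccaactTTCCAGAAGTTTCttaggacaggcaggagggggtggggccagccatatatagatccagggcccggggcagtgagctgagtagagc
Plod2: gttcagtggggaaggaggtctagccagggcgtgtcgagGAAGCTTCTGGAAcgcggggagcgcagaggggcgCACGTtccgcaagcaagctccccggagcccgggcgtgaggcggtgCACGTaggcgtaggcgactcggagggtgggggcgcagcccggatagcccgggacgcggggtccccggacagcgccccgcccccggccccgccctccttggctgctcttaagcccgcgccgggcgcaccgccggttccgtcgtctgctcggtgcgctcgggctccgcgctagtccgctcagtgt
Plod1: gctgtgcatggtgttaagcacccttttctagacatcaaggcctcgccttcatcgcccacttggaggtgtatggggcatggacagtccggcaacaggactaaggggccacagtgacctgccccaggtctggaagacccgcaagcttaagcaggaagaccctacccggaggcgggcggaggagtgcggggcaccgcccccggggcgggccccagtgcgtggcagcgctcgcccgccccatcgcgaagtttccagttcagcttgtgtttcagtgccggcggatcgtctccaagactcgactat
P4ha2: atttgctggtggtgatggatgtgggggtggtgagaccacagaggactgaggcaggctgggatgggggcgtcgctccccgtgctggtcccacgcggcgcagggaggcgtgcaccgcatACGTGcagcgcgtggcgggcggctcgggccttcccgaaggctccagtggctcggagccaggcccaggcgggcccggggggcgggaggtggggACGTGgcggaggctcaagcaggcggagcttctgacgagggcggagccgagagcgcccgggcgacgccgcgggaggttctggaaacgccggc

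Both strands of these windows were searched. The heat shock element was found in 2 of the 9 member promoters, Serpinh1 and Plod2, and in 0.798% of 33469 rat promoters of the same length. ACGTG was found in 3 of 9, Plod2, P4ha1 and P4ha2, against 19.3% of all promoters, and matches of the same letters on opposite strands could overlap. GCGTG was found in 6 of 9 against 29.7%, GGGCGG in 9 of 9 against 33.1% and CAGACA in 1 of 9 against 21.1%. G and C made up between 56.7% (Pcolce) and 76.7% (Adamts2) of the member windows. The set of all promoters was not matched for this, so that counts of GC-rich letters cannot be read as a trait of these genes. Plod1 is printed without capitals because neither the heat shock element nor ACGTG was found there. Neither was found for Pcolce or Adamts2, which also rose in the model group. P4ha1 and P4ha2, which held ACGTG, overlapped between the normal and model livers. These counts describe the letters only. Binding was not measured, and whether the letters have any part in the changes in these livers was not tested.

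Between 13156735 and 18090405 reads were counted per liver. One library, model 1, stood apart. Its 50 most counted genes took 27.9% of the reads against 40.4% to 45.7% in the other 8 livers, and its normalization factor was 1.69 against 0.816 to 1.16. Of the 10 members, 8 had their highest level in this liver, the exceptions being P4ha2 and Bmp1, so that results which rest on it are given with and without it. The summed level of 10 hepatocyte markers was 42176 CPM (counts scaled to library size) in model 1 and between 118074 and 204596 CPM in the other 8 livers. By group it ran from 144573 to 183554 CPM in the normal control group and from 125595 to 204596 CPM in the TA group. The other model livers stood at 118074 and 129998 CPM, so that every model liver lay below every normal liver. None of these markers was at 0 in every liver. Summed stellate cell and myofibroblast markers ran from 95.4 to 114 CPM in the normal control group, from 302 to 1457 CPM in the model group, with the highest value in model 1, and from 192 to 258 CPM in the TA group. Summed cholangiocyte markers ran from 17.5 to 30.4, from 102 to 1987 and from 32.7 to 49.2 CPM. Spp1 alone made up 1848 CPM of this sum in model 1, and without it the sums ran from 15.7 to 23.5, from 75.8 to 139 and from 28.6 to 32.4 CPM. Summed mesothelial markers ran from 0.839 to 2.49, from 25.4 to 83.3 and from 4.65 to 13.4 CPM. Macrophage marker sums ran from 331 to 451, from 218 to 682 and from 303 to 734 CPM. Those of endothelial markers ran from 155 to 188, from 146 to 323 and from 169 to 235 CPM. In both lists the sums of the groups overlapped, but single markers went both ways. Cd68, Adgre1 and Vwf were higher in every model liver than in every normal liver, and Marco, Clec4f and Kdr were lower. The other tested markers of these lists overlapped between normal and model livers. Within the stellate cell list, Lrat and Reln overlapped between normal and model livers, and the rest were higher in every model liver. The part of these cell types in the results below was not tested, and in whole liver fewer cells of a type and less RNA per cell cannot be told apart.

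Levels in CPM, above and below, are those after TMM normalization, a scaling that sets most genes to no change between livers. A gene was called at an adjusted p under 0.05 in edgeR's quasi-likelihood test, and a second count used the thresholds of the study's methods, which are p under 0.05 before adjustment and a change beyond 1 in log2. Groups are said not to overlap where every liver of one lay above every liver of the other.

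In the fibrotic livers of the model group, Plod2, Pcolce and Adamts2 rose above their normal levels, by between 12.3 and 30.2 times. In log2 these changes were between 3.62 and 4.91, and without model 1 between 2.44 and 3.85. Serpinh1 was higher and Bmp1 lower in each model liver than in each normal liver without being called, and the normal and model livers overlapped for P4ha1, P4ha2, Plod1 and Plod3. P4ha3 was nearly absent outside 1 liver and did not pass the filter on low counts in any comparison. Of the 9 tested members, 3 were called, all higher, against 7.87% of the 12730 genes tested in either direction and 6.86% that were higher. By the study's thresholds 4 of 9 were higher, against 16.6% of genes, and none was lower, against 5.55%. The groups did not overlap for 4 higher members, against 20.9% of genes, and for 1 lower member, against 17.3%. The median log2 fold change was 0.11 over the 9 members and 0.02 over all genes tested.

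**Figure D1:**
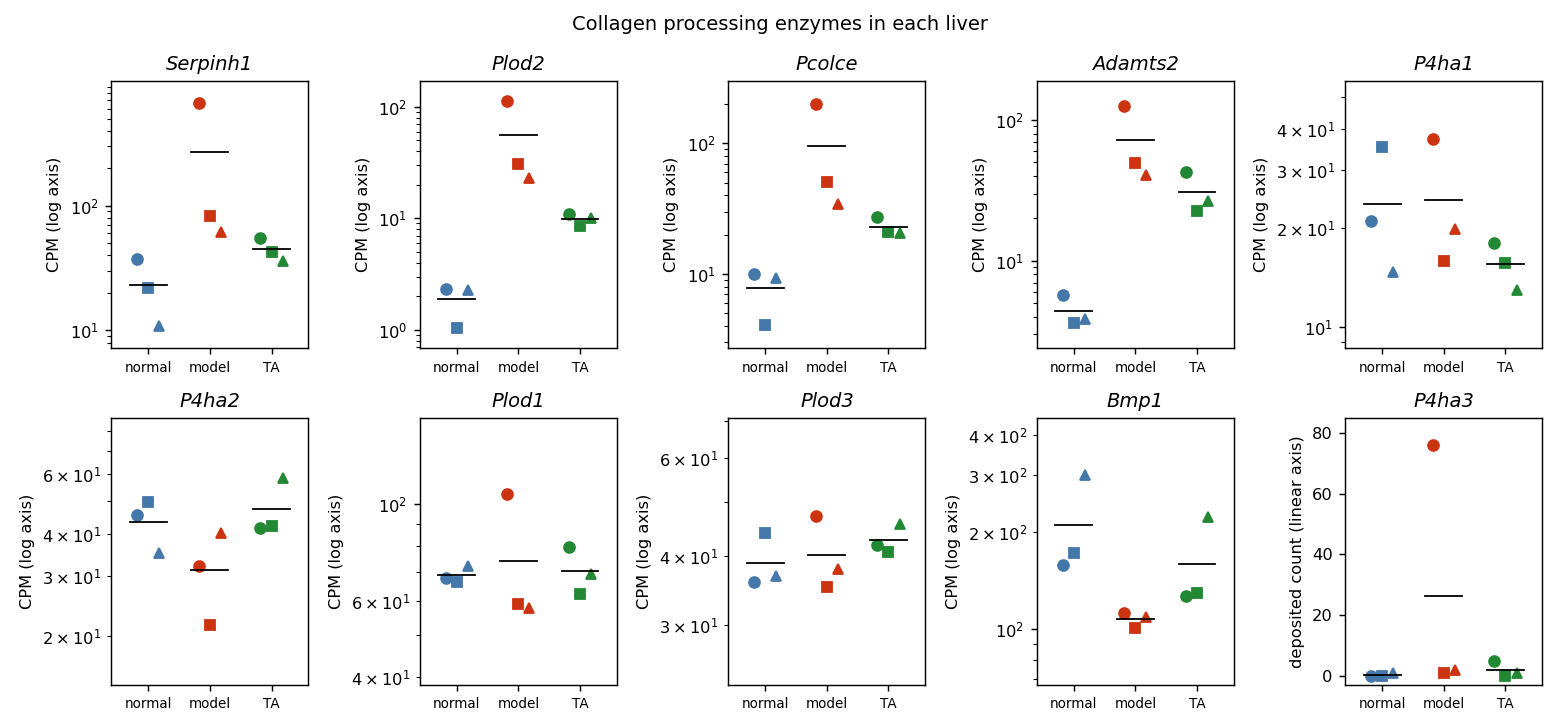
Level of each of the 10 genes in each liver, as CPM after TMM normalization on a log axis, except P4ha3, which is shown as deposited counts on a linear axis; circles, squares and triangles are replicates 1, 2 and 3 and the black line is the group mean. Serpinh1, Plod2, Pcolce and Adamts2 are higher in all 3 model livers than in all 3 normal livers, and the model 1 circle is the highest point in every panel but those of P4ha2 and Bmp1.

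Serpinh1, the collagen chaperone, was at 37.1, 22.1 and 10.8 CPM in the normal livers, at 666, 83.0 and 61.9 CPM in the model livers and at 55.1, 42.5 and 36.2 CPM in the TA livers. Model 1 alone held 9.20 times the mean of the other model livers, and even the lowest model liver lay above the highest normal liver. The log2 fold change in the model group was 3.54 (SE 0.99, n = 3 per group; edgeR adjusted p = 0.0652), past the study's thresholds but not called. Without model 1 it was 1.62 (edgeR adjusted p = 0.0683). Serpinh1 was called higher by limma voom (1.69, adjusted p = 0.0243), and by edgeR with library totals, with no filter on low counts, with all 9 libraries in 1 fit, with a block for the replicate number or without model 3 (edgeR adjusted p from 0.0203 to 0.0451). The log2 fold change in TA VS Model was -2.60 (SE 0.89; edgeR adjusted p = 0.269), past the study's thresholds with groups apart, while without model 1 it was -0.69 (edgeR adjusted p = 0.478). The TA and normal livers overlapped at the normal 1 liver, with a log2 fold change of 0.91 (SE 0.40; edgeR adjusted p = 0.542). DESeq2 gave Serpinh1 no p-value in Model VS Normal or in TA VS Model.

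The prolyl 4-hydroxylase alpha subunits carry the catalytic site of an enzyme whose other subunit is P4hb. P4ha1 was at 20.9, 35.1 and 14.7 CPM in the normal livers, at 37.3, 15.8 and 19.9 CPM in the model livers and at 17.9, 15.6 and 12.9 CPM in the TA livers. All 3 groups overlapped in P4ha1, and its log2 fold change was 0.05 (SE 0.42) in Model VS Normal, -0.65 (SE 0.35) in TA VS Model and -0.64 (SE 0.33) in TA VS Normal. P4ha2 was at 45.4, 49.6 and 35.1 CPM in the normal livers, at 32.1, 21.6 and 40.1 CPM in the model livers and at 41.6, 42.1 and 58.5 CPM in the TA livers. For P4ha2 every TA liver lay above every model liver, with a log2 fold change of 0.60 (SE 0.29; edgeR adjusted p = 0.352) that passed no threshold. The value for P4ha2 in Model VS Normal was -0.47 (SE 0.28; edgeR adjusted p = 0.303), while limma voom called P4ha2 lower at -0.86 (adjusted p = 0.0252).

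P4ha3 had 0, 0 and 1 counts in the normal livers, 76, 1 and 2 in the model livers and 5, 0 and 1 in the TA livers. Its signal was therefore that of model 1, and no fold change is given for it.

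Plod2, the lysyl hydroxylase that acts on the telopeptides from which stable cross-links form, had the largest log2 fold change of the members in Model VS Normal. It was at 2.32, 1.03 and 2.27 CPM in the normal livers, at 114, 30.8 and 23.0 CPM in the model livers and at 11.0, 8.62 and 10.1 CPM in the TA livers. These 3 groups did not overlap in any pairing, and the TA livers lay between the other groups. The log2 fold change was 4.91 (SE 0.72; edgeR adjusted p = 0.0135), that is 30.2-fold, in Model VS Normal, and 3.85 (edgeR adjusted p = 0.00273) without model 1. Under TA the log2 fold change of Plod2 against the model group was -2.50 (SE 0.60; edgeR adjusted p = 0.246), and -1.43 (edgeR adjusted p = 0.270) without model 1. Against the normal livers it was 2.38 (SE 0.37; edgeR adjusted p = 0.0511), and 2.42 with the replicate number added to the fit as a block (edgeR adjusted p = 0.0125).

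Plod1 and Plod3, which hydroxylate lysines of the helix and, for Plod3, also add sugars to them, did not pass a threshold in any comparison. Plod1 was at 67.6, 66.2 and 71.9 CPM in the normal livers, at 105, 58.9 and 57.6 CPM in the model livers and at 79.5, 62.3 and 69.3 CPM in the TA livers. Its 3 normal livers lay within the range of the model livers, and the log2 fold change was 0.11 (SE 0.30) in Model VS Normal and -0.07 (SE 0.31) in TA VS Model. Plod3 was at 35.9, 44.0 and 36.7 CPM in the normal livers, at 47.2, 35.2 and 37.8 CPM in the model livers and at 41.8, 40.6 and 45.6 CPM in the TA livers. For Plod3 the log2 fold change was 0.05 (SE 0.22) and 0.09 (SE 0.22) in the same comparisons.

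Pcolce, a secreted protein that speeds the cleavage of the C-propeptide without being a proteinase itself, was at 9.96, 4.05 and 9.23 CPM in the normal livers, at 200 CPM, 50.3 CPM and 34.1 CPM in the model livers and at 27.4, 21.0 and 20.6 CPM in the TA livers. No pair of groups overlapped. The log2 fold change was 3.62 (SE 0.73; edgeR adjusted p = 0.0308), or 12.3-fold, in Model VS Normal and 2.44 (edgeR adjusted p = 0.0117) without model 1. For TA VS Model the value of Pcolce was -2.05 (SE 0.64; edgeR adjusted p = 0.260), and -0.86 (edgeR adjusted p = 0.391) without model 1. The value in TA VS Normal was 1.55 (SE 0.34; edgeR adjusted p = 0.136), and with the replicate block 1.61 (edgeR adjusted p = 0.0314).

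Bmp1, the C-proteinase that Pcolce enhances, had its lowest levels in the model livers. It was at 158, 172 and 301 CPM in the normal livers, at 112, 101 and 109 CPM in the model livers and at 126, 129 and 222 CPM in the TA livers. Every model liver lay below every normal and every TA liver. For Bmp1 the log2 fold change was -0.97 (SE 0.33; edgeR adjusted p = 0.106) in Model VS Normal and 0.57 (SE 0.32; edgeR adjusted p = 0.399) in TA VS Model, and neither passed a threshold. Without model 1 the first value was -1.02 (edgeR adjusted p = 0.0990), which passed the study's thresholds, as did the values without normal 1 (-1.15) or normal 2 (-1.11), while with library totals in place of TMM it was -0.33 (edgeR adjusted p = 0.515). Both DESeq2 (adjusted p = 0.0193) and limma voom with sample quality weights (adjusted p = 0.0305) called Bmp1 lower in Model VS Normal.

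Adamts2, which removes the N-propeptide of fibrillar procollagens, was at 5.73, 3.60 and 3.86 CPM in the normal livers, at 126, 49.5 and 40.4 CPM in the model livers and at 42.9, 22.5 and 26.5 CPM in the TA livers. The normal livers lay far below all others, whereas TA 1 lay above the lowest model liver. The log2 fold change was 4.04 (SE 0.50; edgeR adjusted p = 0.0104), or 16.4-fold, in Model VS Normal and 3.34 (edgeR adjusted p = 0.00206) without model 1. Set against the model livers, the TA value for Adamts2 was -1.23 (SE 0.48; edgeR adjusted p = 0.294), and -0.54 (edgeR adjusted p = 0.629) without model 1. Adamts2 was the member called in TA VS Normal, where the log2 fold change was 2.77 (SE 0.33; edgeR adjusted p = 0.0218), or 6.84-fold.

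In TA VS Model no gene of the 12781 tested was called by edgeR (0%), although 1999 had an unadjusted p under 0.05. DESeq2 called 541 genes, among them Plod2 (adjusted p = 0.00417) and Pcolce (adjusted p = 0.0436). By the study's thresholds 4 of 9 members were lower, Serpinh1, Plod2, Pcolce and Adamts2, against 10.2% of genes, and none was higher, against 2.11%. Plod2 alone passed them without model 1 or without TA 3, and Plod2 and Pcolce without TA 2. The median log2 fold change was -0.65 over the members and -0.00 over all genes tested. P4ha2 and Bmp1 were the members higher in every TA liver than in every model liver, against 10.5% of genes, and Serpinh1, Plod2 and Pcolce those lower, against 12.6%.

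In TA VS Normal 1 of 9 members was called, against 0.263% of the 12179 genes tested, 0.23% higher and 0.0328% lower. By the study's thresholds 3 members passed, all higher, namely Adamts2, Plod2 and Pcolce, against 5.25% of genes in either direction and 4.24% higher. The same 3 were higher without overlap, against 8.26% of genes, and no member was lower without overlap, against 6.81%. Adamts2 was not called without any one of the normal livers or without TA 1, at edgeR adjusted p-values from 0.0727 to 0.0995. The median was 0.10 over the members and -0.01 over all genes. In this comparison the livers of the same replicate number deviated together to a degree, though the labels do not state that they are paired. As an alternative to the main fit, adding the replicate block called 3 members, Adamts2 (edgeR adjusted p = 0.00155), Plod2 (edgeR adjusted p = 0.0125) and Pcolce (edgeR adjusted p = 0.0314), against 1.67% of genes. Since TA VS Model and Model VS Normal share the model livers, their values for a gene are not independent.

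**Figure D2:**
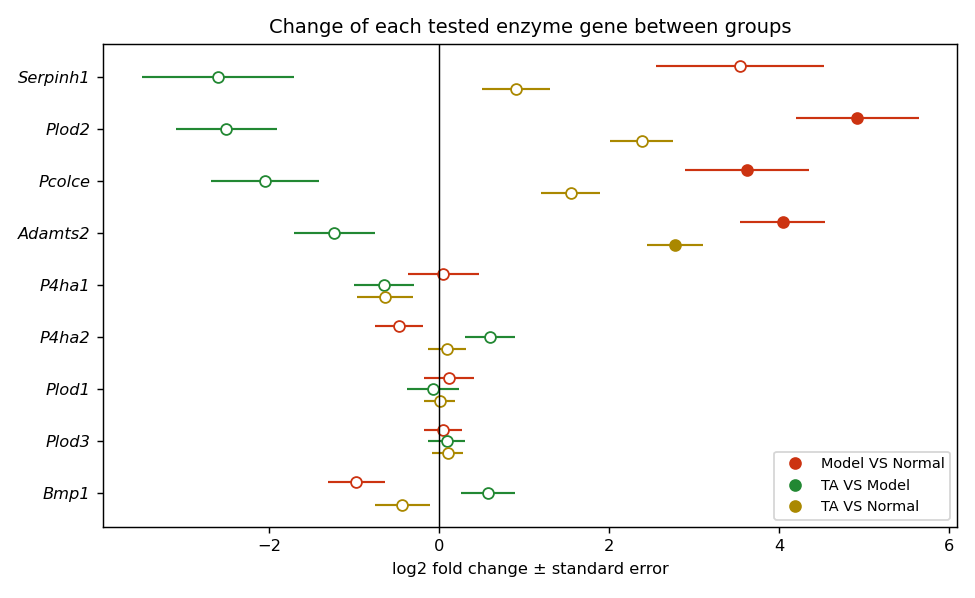
Log2 fold change of the 9 tested genes in each comparison, with bars of 1 standard error from edgeR's fit; filled points had an adjusted p under 0.05. Plod2, Adamts2 and Pcolce are filled in Model VS Normal, Adamts2 is also filled in TA VS Normal, and no point is filled in TA VS Model.

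With library totals in place of TMM the median of all genes was 0.65 in Model VS Normal, -0.48 in TA VS Model and 0.18 in TA VS Normal, so that the direction of some members depended on the scaling. In Model VS Normal P4ha1, Plod1 and Plod3 then stood at 0.77, 0.83 and 0.71, and P4ha2 turned from -0.47 to 0.15. Relative to that shift of 0.65, P4ha1, Plod1 and Plod3 were again close to the other genes. P4ha2 lay below the median of all genes under both scalings. Serpinh1, Plod2, Pcolce and Adamts2 were higher in the model group under both scalings, and Bmp1 was lower under both. In TA VS Model Plod3 turned from 0.09 to -0.42. Leaving out any one normal liver left no member called in Model VS Normal, with log2 fold changes of Plod2 between 4.59 and 5.09, but also left few of all genes called, 0.385% without normal 1 and 0% without normal 2 or normal 3.

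Ratios of counts within a liver need no scaling between livers. The log2 ratio of Plod2 to Plod1 was -4.84, -5.96 and -4.96 in the normal livers, 0.11, -0.93 and -1.32 in the model livers and -2.86, -2.85 and -2.78 in the TA livers. The groups lay apart in all 3 comparisons, and the TA livers were close to each other. The ratio of Bmp1 to Pcolce was 3.98, 5.40 and 5.02 in the normal livers, -0.83, 1.00 and 1.67 in the model livers and 2.20, 2.62 and 3.43 in the TA livers, and these groups also lay apart. In an exact permutation test of 3 against 3, two-sided, p was 0.1 for each of these differences, the smallest p this design allows, or 0.182 after Benjamini-Hochberg adjustment over the 51 ratios and comparisons tested. The mean log2 ratio of Plod3 to Plod1 was -0.82 ± 0.20 in the normal livers, -0.83 ± 0.29 in the model livers and -0.72 ± 0.18 in the TA livers (SD, n = 3), with overlapping groups. P4ha2 to P4ha1 stood at 0.96 ± 0.40, 0.42 ± 0.62 and 1.61 ± 0.51, and only the model and TA livers lay apart.

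Per length, taken from the deposited FPKM values, the mix of lysyl hydroxylases differed between the groups. Plod2 made up 1.73%, 0.724% and 1.61% of the summed Plod1, Plod2 and Plod3 level in the normal livers, 36.9%, 20.4% and 15.9% in the model livers and 6.61%, 6.14% and 6.41% in the TA livers. Each model liver was thus above each TA liver, and each TA liver above each normal liver. Plod1 was the largest share in every liver, at 61.4% ± 2.99, 46.8% ± 3.67 and 56.6% ± 2.71 (SD, n = 3). Among the prolyl 4-hydroxylases P4ha2 took 62.7% ± 6.56 in the normal, 52.7% ± 11.8 in the model and 72.1% ± 6.89 in the TA livers. P4ha3 stayed under 1% except in model 1, where it took 6.26%.

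**Figure D3:**
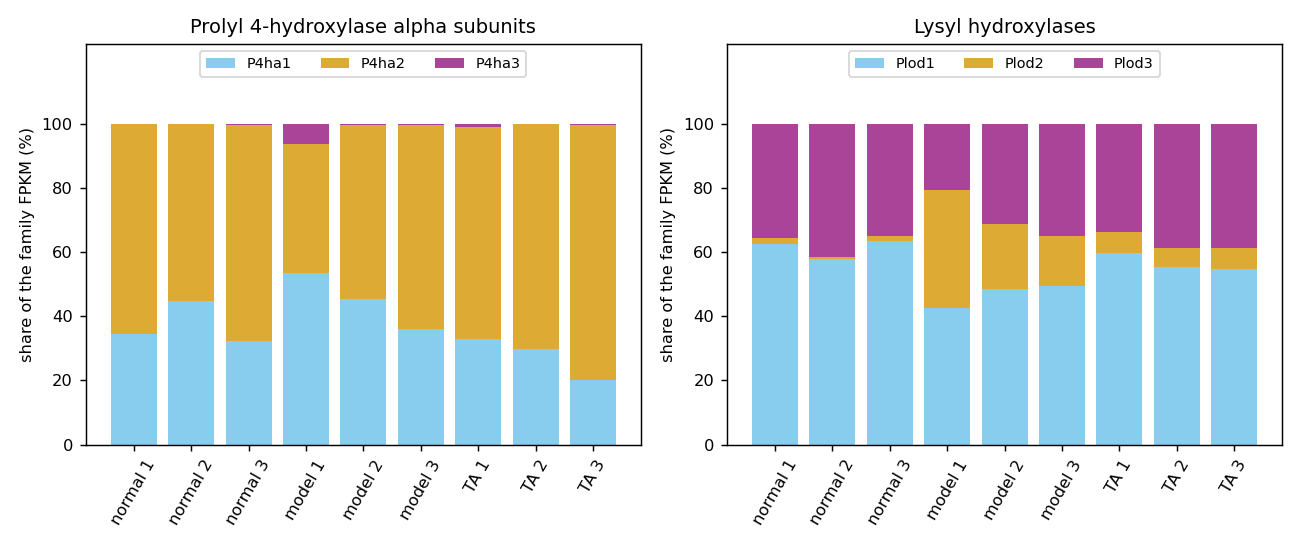
Share of each gene in the summed FPKM of its family, in percent, as stacked bars for each of the 9 livers; the prolyl 4-hydroxylase alpha subunits are on the left and the lysyl hydroxylases on the right. The Plod2 band is thin in the normal livers, widest in the model livers and between these in the TA livers.

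The order of the members by FPKM also changed. In the normal control group it ran Bmp1 (48.2 ± 16.7 FPKM), Plod1 (19.5 ± 0.329), P4ha2 (15.0 ± 2.95), Plod3 (11.9 ± 1.60), Serpinh1 (9.42 ± 5.39), P4ha1 (9.40 ± 4.39), Pcolce (3.94 ± 1.60), Adamts2 (0.563 ± 0.151), Plod2 (0.426 ± 0.161) and P4ha3 (0.0138 ± 0.0238). The ranges of neighbours overlapped from P4ha2 down to P4ha1, and again for Adamts2 and Plod2. In the model group Serpinh1 (205 ± 289 FPKM) and Pcolce (87.6 ± 102) came before Bmp1 (38.4 ± 11.7), but neighbours overlapped at every step down to Adamts2 (15.9 ± 14.4). Without model 1, left out here after the data were seen, the means were 38.5 FPKM for Serpinh1, 31.6 FPKM for Bmp1 and 28.6 FPKM for Pcolce, so that Pcolce came after Bmp1. In the TA group Bmp1 (40.7 ± 13.1 FPKM) was first again, with Serpinh1 (20.1 ± 5.43) behind Plod1 (22.4 ± 4.01), and with Adamts2 (4.43 ± 1.83) and Plod2 (2.53 ± 0.430) above their normal levels.

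The enzymes were also set against the chains they act on. Col1a1 had 219, 170 and 87 counts in the normal livers, 98977, 3518 and 3433 in the model livers and 2467, 1111 and 1122 in the TA livers. Col3a1 had 2467, 2097 and 1705 counts, 153767, 11308 and 14454 counts, and 11672, 6679 and 5799 counts in the same order. Relative to the sum of these chains, P4ha1, P4ha2, Plod1, Plod3 and Bmp1 were lower in every model liver than in every normal liver, by between 3.78 and 4.74 in mean log2 ratio. Relative to the chains, all 5 were higher again in every TA liver than in every model liver, by between 1.22 and 2.41, and lower than in every normal liver. Without model 1 the first range was 2.80 to 3.66, and the difference between TA and model livers was 0.46 for P4ha1, 0.89 for Plod3, 0.93 for Plod1, 1.22 for Bmp1 and 1.34 for P4ha2. These ratios also carry the change of the chains. In Model VS Normal the log2 fold change was 7.08 for Col1a1 and 4.17 for Col3a1, and between -0.97 and 0.11 for the 5 genes. In TA VS Model it was -3.80 and -2.25 for the chains, and between -0.65 (P4ha1) and 0.60 (P4ha2) for the 5 genes.

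Between the normal and model livers, the mean ratios of Serpinh1, Plod2, Pcolce and Adamts2 to the chains moved by less. The log2 ratio to the summed chains was -3.03 ± 0.66 for Serpinh1 in the normal livers, -4.00 ± 0.41 in the model livers and -3.99 ± 0.18 in the TA livers (SD, n = 3). For Adamts2 the ratio was -5.29 ± 0.03, -5.25 ± 1.12 and -4.57 ± 0.29, and for Plod2 -6.56 ± 0.54, -5.80 ± 0.83 and -6.15 ± 0.43. Pcolce stood at -4.55 ± 0.57, -5.10 ± 0.78 and -4.94 ± 0.28. For these 4 genes the model livers overlapped with the normal and the TA livers, and exact permutation p-values ran from 0.2 to 1.0 in those comparisons. The smallest p the design allows is 0.1. In TA VS Normal the groups lay apart for Serpinh1, at a difference of -0.96, and for Adamts2, at a difference of 0.72 (exact permutation p = 0.1, or 0.182 after adjustment over the 51).

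**Figure D4:**
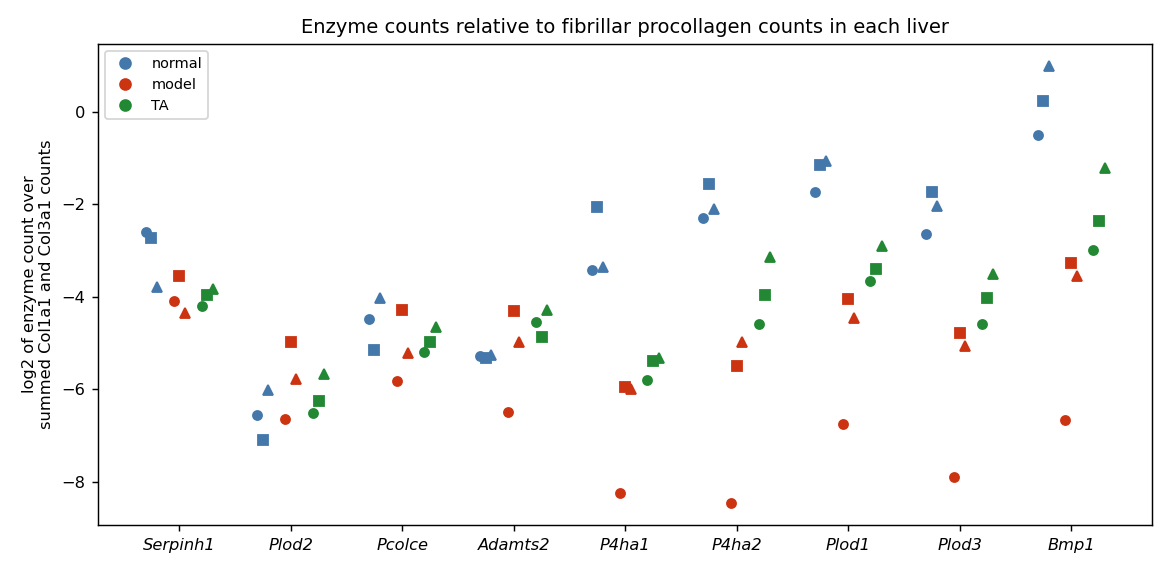
Log2 ratio of each enzyme's count to the summed Col1a1 and Col3a1 counts in each liver, with 0.5 added to both; colours are groups and circles, squares and triangles are replicates 1, 2 and 3. The ratios of P4ha1, P4ha2, Plod1, Plod3 and Bmp1 separate normal, TA and model livers, whereas for Serpinh1, Plod2, Pcolce and Adamts2 the model livers overlap with the other groups.

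Other genes of procollagen processing were divided in the same manner. They are counted here together with genes of collagen uptake and breakdown, also where other genes of processing are named below. Of 34 listed, 4 were genes of uptake and breakdown. Tested in each comparison were 24, with Mrc2 and Ctsk as those of uptake and breakdown. In Model VS Normal 10 were higher and 1 lower by the study's thresholds, against 16.6% and 5.55% of all genes, and 6 were called, all higher, against 6.86%. Those higher included Mrc2 (5.08), a receptor that takes up collagen, Fkbp10 (4.62), a prolyl isomerase that partners Plod2, P3h4 (3.67), a scaffold of the lysyl hydroxylase complex, Kdelr3 (3.01), a retrieval receptor, and Creb3l1 (2.24), a transcription factor of collagen secretion, each given as a log2 fold change and each called by edgeR, as was Fkbp9 (1.37). Ctsk (3.11), a collagen-degrading protease, Fkbp7 (2.08), P3h3 (1.84) and Adamts14 (1.63) passed the study's thresholds alone, and Tmem38b (-1.01), an ion channel of the endoplasmic reticulum, was lower. P4hb, the shared partner of the P4ha subunits, stood at -0.03 (SE 0.41), the isomerase Ppib at 0.10 (SE 0.31), the chaperone Hspa5 at -0.12 (SE 0.36) and P3h1 at 0.04 (SE 0.29), none past a threshold. The median log2 fold change over the 24 was 0.30.

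In TA VS Model 7 of the 24 were lower and 1 was higher by the study's thresholds, against 10.2% and 2.11% of all genes, with log2 fold changes of -2.68 for Fkbp10, -2.26 for P3h4, -2.19 for Mrc2, -2.13 for Kdelr3, -2.00 for Ctsk, -1.40 for Fkbp7 and -1.13 for P3h3, and of 1.29 for Tmem38b. None was called by edgeR, and the count past the thresholds was 2 without model 1 (6.13% of all genes, against 12.3% with it), 3 without TA 1 (10.4%) and 5 without TA 2 (7.34%) or TA 3 (9.5%). In TA VS Normal 5 were higher, against 4.24% of all genes, and none was lower, Mrc2 (2.85), Fkbp10 (1.91), P3h4 (1.37), Creb3l1 (1.18) and Ctsk (1.08), and none was called, with 3 past the thresholds without normal 2 or without TA 1. The median over the 24 was -0.23 in TA VS Model and 0.26 in TA VS Normal.

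**Figure D5:**
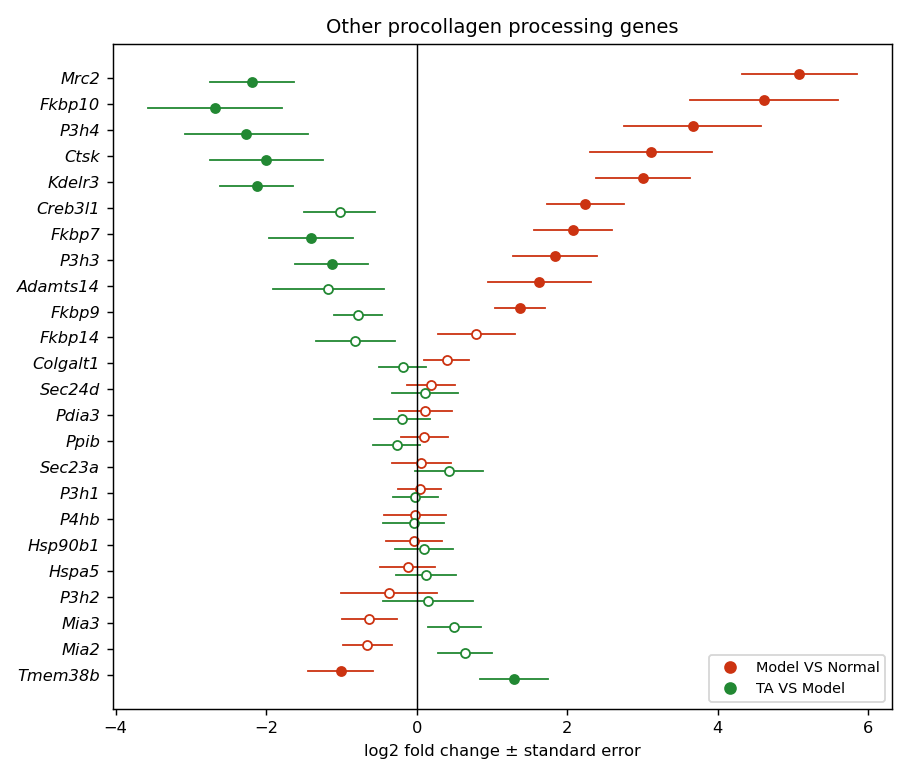
Log2 fold change of the 24 other tested genes of procollagen processing, with Mrc2 and Ctsk of collagen uptake and breakdown among them, in Model VS Normal and TA VS Model, with bars of 1 standard error. Filled points passed the study's thresholds (p under 0.05 before adjustment and a change beyond 1 in log2). Mrc2, Fkbp10 and P3h4 lie farthest to the right in Model VS Normal, and Tmem38b is the filled point that is lower in Model VS Normal and higher in TA VS Model.

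The mean profile of the 9 tested members over the 9 livers was most like that of Dennd5a, at a root mean square difference of 0.259 in standardised log2 CPM, followed by Pcdh12 (0.263), Stom (0.264), Crmp1 (0.274) and Vegfb (0.288), against a median of 1.33 over 12998 genes. The members themselves lay between 0.533 for Serpinh1 and 1.53 for Bmp1, so that no single profile described them. The 9 livers share 3 groups, and model 1 was the highest point of the mean profile, at 2.37. Model 2 stood at -0.68 and model 3 at -0.15, against -0.92 to -0.38 in the normal livers and -0.32 to 0.48 in the TA livers. Likeness to this profile is thus mainly likeness to a peak in model 1, not to a rise shared by the model livers.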

How the data were processed

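Liver RNA of rats (9 libraries, 3 each from the normal control, model and TA groups) was analysed from 2 deposited tables, and groups were taken from the labels. The authors selected polyA RNA, removed adapters and low-quality bases, aligned reads with STAR and made counts per gene with HTSeq-count. The methods name hg19 and the processing notes mm9 as the build, while the symbols are written as rat symbols, so that the build behind the counts could not be settled and no coordinate comes from the files. Strandedness of the counting is not given in the sources used here. The authors deposited raw counts, used for all tests, FPKM values, used for levels per length, and a signal, the counts divided by DESeq2 size factors, which was not tested. Columns of the authors' log2 fold changes and p-values were not used.

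Counts were tested with edgeR 4.0.16 (R 4.3.3; quasi-likelihood test in its legacy form, TMM, filterByExpr with a minimum count of 10, Benjamini-Hochberg adjustment over all genes tested), with only the libraries of the groups compared. Standard errors are the log2 fold change over the square root of F. TA VS Normal joined the tables by symbol (16730 shared genes). Alternatives were DESeq2 1.42.0, limma 3.58.1 voom with sample quality weights, other forms of the fit, normalizations and filters, a joint fit of all 9 libraries, a block for the replicate number, and each library left out. Ratios used counts plus 0.5. The substrates were planned to include Col1a2, which was not analysed here, nor were Crtap, Pcolce2 and Pepd. Depth was 13156735 to 18090405 counts per library, and replicates differed by more than sampling noise (chi-square per gene 33.0 to 345). The precision is limited by 3 libraries per group more than by depth, except for P4ha3.

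The replicate numbers come from the labels. In TA VS Normal, deviations of same-numbered livers from their group means correlated at r = 0.233, 0.370 and 0.452, against a mean of -0.169 for other pairs. Deviations from a group mean cancel within the group. The mean for other pairs therefore takes the opposite sign and is no independent comparison. In Model VS Normal and TA VS Model the mean for same-numbered livers was 0.0345 and 0.0595. The labels do not state that same-numbered livers are paired, and whether they are was not settled. The main fit used no block in any comparison, and fits with the block are given as an alternative. The members and lists were chosen with earlier results of these data known. All 10 members are named, and of the other genes of processing those past the study's thresholds, with P4hb, Ppib, Hspa5 and P3h1 named after their values were seen. The 5 genes nearest to the members' mean profile are named by their root mean square difference.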

Additional observations from a re-analysis of the deposited data

How the results depend on the processing

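Shares in parentheses are those of all genes tested under the same setting. In Model VS Normal limma voom called 6 members (27%), and leaving out 1 library gave 0 to 4 called (0% to 19.3%), 4 to 5 past the study's thresholds (16% to 29.8%) and 8 to 12 other genes of processing past them. In TA VS Model DESeq2 called 2 members (4.23%), limma voom put 2 members and 4 other genes past the study's thresholds (13.4%), and leaving out 1 library gave 0 called (0% to 0.00761%), and 1 to 4 members and 2 to 10 other genes past them (6.13% to 21.2%). In TA VS Normal DESeq2 (2.96%) and limma voom (1.03%) called 3 members each, the newer quasi-likelihood form, upper-quartile normalization, library totals and no filter on low counts 2 each (0.328% to 0.474%), all 9 libraries in 1 fit 0 (0.108%), with 3 other genes past the thresholds, and leaving out 1 library gave 0 to 1 called (0.00799% to 0.491%), and 3 to 4 members and 3 to 5 other genes past them (4.25% to 7.39%). The replicate block, which assumes a pairing that the labels do not state, called 3 members (1.67%) in TA VS Normal and 4 (9.55%) in Model VS Normal.

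The log2 fold change turned in direction for P4ha1, P4ha2, Plod1 and Plod3. In Model VS Normal limma voom gave P4ha1 -0.47, Plod1 -0.16 and Plod3 -0.088, and library totals gave P4ha2 0.15. In TA VS Model limma voom gave Plod1 0.25, upper-quartile normalization gave Plod3 -0.022 and library totals gave Plod3 -0.42. In TA VS Normal limma voom gave P4ha2 -0.085. Leaving out 1 library, the log2 fold change ran from -0.43 to 0.44 for P4ha1, -0.25 to 0.25 for Plod1 and -0.11 to 0.13 for Plod3 in Model VS Normal, from -0.21 to 0.29 for Plod1 in TA VS Model, and from -0.080 to 0.21 for P4ha2 and -0.093 to 0.082 for Plod1 in TA VS Normal. The log2 ratio differences that turned ran from -0.13 to 0.15 (Plod3 to Plod1) and -0.44 to 0.66 (Adamts2 to the chains) in Model VS Normal. For TA VS Model they ran from -0.043 to 0.23 (Plod3 to Plod1), -1.84 to 0.10 (P4ha3 to P4ha1), -0.46 to 0.84 (P4ha3 to the chains), -0.17 to 0.23 (Serpinh1 to the chains), -0.77 to 0.062 (Plod2 to the chains) and -0.19 to 0.58 (Pcolce to the chains). The causes of these changes were not tested.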
